A study of Mus musculus with 24 samples.

Results

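The comparison described here sets adult mouse liver after 60 min of partial hepatic ischemia against adult liver after a sham operation. Its members were chosen by the sample titles alone: 3 arrays of the adult 60 min group and 3 arrays of the adult sham group, 6 of the 24 arrays of the series, read over all 26180 probe sets. The adult mice were 12 to 14 months old. Partial hepatic ischemia stops the blood flow to some of the lobes, and the sham group had the operation without it. Median and left lobes were taken into RNAlater at once, and RNA purified on RNeasy columns was labelled with the Affymetrix one-cycle kit for 3′ arrays. The other groups, each of 3 arrays, were adult liver after 30 or 90 min and young liver, from mice 4 to 5 weeks old, after sham or after 30, 60 or 90 min. Strain, sex and genotype are not given in the labels used here. The titles write the ischemia time with "/0" behind it, and the labels do not say what the 0 stands for. The design text counts 12 adult and 12 young mice with 3 per group, so each array is read as 1 mouse.

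Hepatocytes are rich in mitochondria, make most plasma proteins and carry the enzymes for drug, bile acid, lipid and ammonia metabolism. When blood flow stops, oxidative phosphorylation halts, ATP falls and the cells turn to glycolysis. Known responses of ischemic liver include immediate early transcription factors, heat shock and endoplasmic reticulum chaperones, the hypoxia-inducible factor HIF and, mainly once blood flows again, inflammatory signalling.

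Each value is a ratio to the average of the sham arrays, taken within an age, so the adult sham mean is 1 for each probe set and the brightness of the arrays is lost. The level of one gene can therefore not be set against that of another, and whether liver markers were abundant cannot be read from these files. The median ratio of an array was 1.00, 1.00 and 0.992 on the sham arrays and 0.981, 0.956 and 0.967 on the 60 min arrays. In bulk tissue, fewer cells of a type and less RNA per cell cannot be told apart. A log2 value below is the mean difference, 60 min minus sham, on the log2 ratio scale, given with its standard error (SE) from limma. A gene is called at a Benjamini-Hochberg adjusted p under 0.05 over all probe sets, two-sided.

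After 60 min of ischemia, lower values far outnumbered higher ones in adult liver. Of the 26180 probe sets, 2067 (7.90%) were called, 1626 lower (6.21%) and 441 higher (1.68%). The lower ones had a median ratio of 0.687 to sham and the higher ones 1.35. Differences of 2-fold or more were few: 34 probe sets were called lower and 11 higher by at least 1 on the log2 scale. With each array centred on its own median, 1738 were called, 1117 lower and 621 higher, and on the linear ratios 494 were called, 269 lower and 225 higher, both more even splits. The 3 arrays of a group did not overlap those of the other for 2035 of the 2067, as against 34.4% of all probe sets. A call favours groups that lie apart, so this share follows in part from the choice. Probe sets without a gene symbol were 26.6% of those called lower, 43.3% of those called higher and 41.8% of all. With 1 probe set for each of 14351 genes, as the gene lists below use, 9.54% were called and the median log2 value was -0.055. Over the 1545 genes of all lists together, 276 (17.9%) were called, 1251 were below 0 and the median was -0.34. A single list near these levels does not stand out from the genes it was drawn with.

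The calls lay close to the threshold and rested on single arrays. The lowest adjusted p was 0.0209. Without sham replicate 1 no probe set was called by limma, and without sham replicates 2 and 3 the counts were 723 and 4. Without 60 min replicate 1 the count rose to 2977, without replicate 2 it was 0, and without replicate 3 it was 1. With the adult arrays fitted alone 47 were called, and after quantile normalization none (2498 at an unadjusted p under 0.05). The log2 ratios had standard deviations of 0.14 to 0.16 on the sham arrays and 0.27 to 0.38 on the 60 min arrays. Quantile normalization gives every array the same spread, so part of that loss of calls may come from the step itself. Between 5248 and 8299 probe sets had an unadjusted p under 0.05 with 1 array left out, against 8146 with all arrays. All 2067 kept their sign and an unadjusted p under 0.05 whichever of the 6 arrays was left out. They were picked from these same arrays, so this was largely set by the choice and is no separate support. The median share of the log2 value that was kept ran from 90.5% to 108%. No listed gene described below was called without sham replicate 1 or 3 or without 60 min replicate 2 or 3, so the counts that follow are those with all arrays. Of all probe sets 56.0% had a log2 value below 0. Of 64 gene lists, 54 had a median below 0, and the lowest of the 3 ischemic arrays was replicate 3 in 52 of the 64 lists and the highest was replicate 1 in 48. The titles also carry a code whose second number is 5 on every sham array and 4 on every 60 min array of these adults, so whatever it stands for cannot be told apart from the ischemia here.

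**Figure D1:**
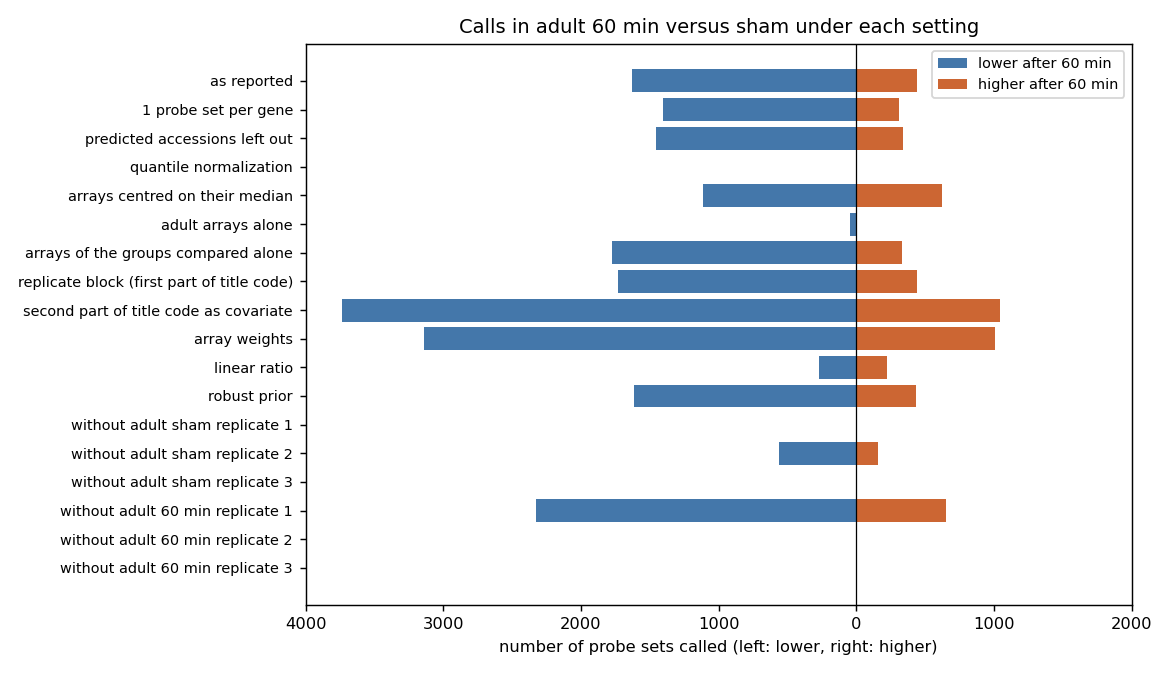
Number of probe sets called in adult 60 min against sham (bars; lower to the left of 0, higher to the right) under each way of analysis and with each array left out. Counts run from 0 to 4781 around the 2067 reported here, and the lower side is the longer one wherever over 100 were called.

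**Figure D2:**
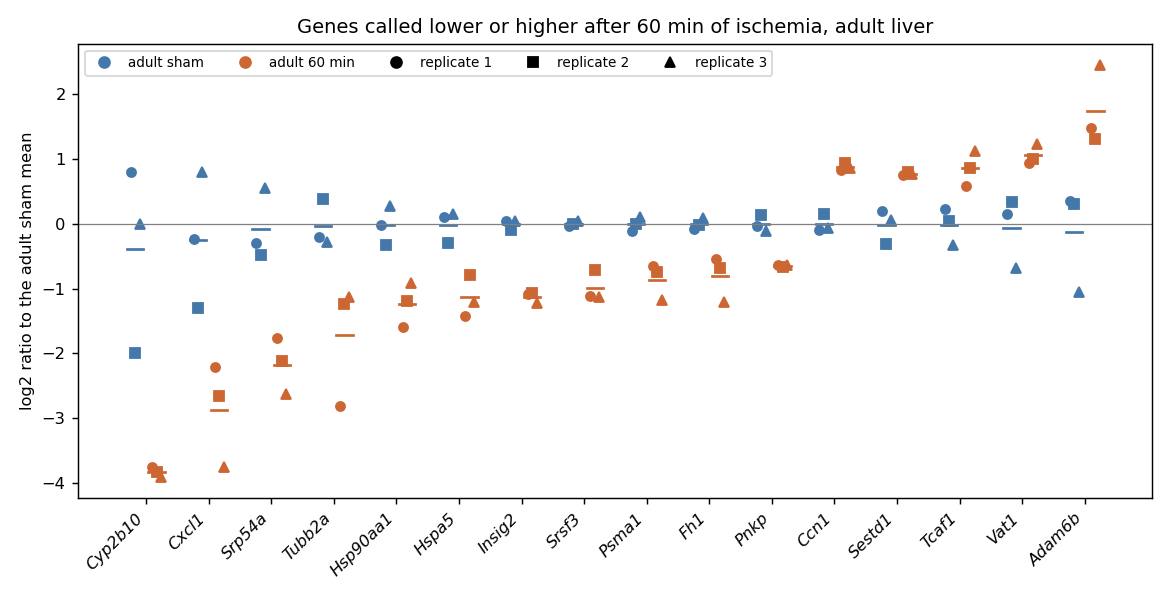
Log2 of the ratio to the adult sham mean (vertical axis) for genes called in the comparison, with 1 point per array, marker shapes for replicates and dashes for group means. In each column the 60 min arrays lie on one side of the sham arrays, from Cyp2b10 with ratios of 0.0662 to 0.0738 up to Adam6b with 2.48 to 5.50.

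The 19S regulator of the proteasome had the highest share of called genes among the 64 lists. The proteasome is the barrel-shaped protease that degrades ubiquitin-tagged proteins, built from a 20S core, which cuts, and a 19S regulator, which unfolds and feeds in the substrate. Of 19 measured 19S subunits 13 were called lower and none higher, with a median log2 value of -0.65; in the 20S core it was 5 of 12, with a median of -0.56. The median over all probe sets was -0.04. Psma1, a ring subunit of the core, had ratios of 0.925, 0.994 and 1.08 in sham liver and 0.635, 0.594 and 0.442 after 60 min. Its 60 min arrays all lay below its sham arrays, and it fell by 0.86 (SE 0.19, adjusted p = 0.0299). Psma2, Psma4, Psma7 and Psmb6 were the other called core genes, with falls of 0.76, 0.67, 0.62 and 0.51. Among the 19S genes, Psmd14, the deubiquitinase that removes the ubiquitin chain, went from 0.896, 1.05 and 1.05 to 0.598, 0.644 and 0.539, a fall of 0.75 (SE 0.18, adjusted p = 0.0306). The lid subunit Psmd7 fell by 0.79, and the base ATPases Psmc6 and Psmc2 fell by 0.79 and 0.69. Psmd3, a lid subunit singled out after its values were seen, was the exception at 0.03 (SE 0.09). The 20S core was not equally low on the 3 ischemic arrays, with list medians of -0.25, -0.55 and -0.94 on replicates 1, 2 and 3. The 19S medians of -0.53, -0.60 and -0.79 lay closer together.

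Neighbouring parts of the degradation pathway were also lower. Of 15 immunoproteasome, activator and assembly genes, 4 were called lower (Pomp, Psmd5, Psme4 and Psmg1) with a list median of -0.44 (-0.29 without 60 min replicate 3). Pomp, the chaperone that helps the core assemble, fell by 0.59 (SE 0.16, adjusted p = 0.0392). Of 33 ubiquitin-activating E1 and ubiquitin-conjugating E2 enzymes, which load ubiquitin and pass it on, 14 were called lower and none higher. Uba3, part of the enzyme that activates Nedd8, had ratios of 1.03, 0.946 and 1.03 in sham liver and 0.631, 0.683 and 0.592 after ischemia. It fell by 0.66 (SE 0.19, adjusted p = 0.0409), and the E2 variant Ube2v2 fell by 0.62. The largest value of the list, that of Ube2l6, which conjugates the ubiquitin-like Isg15, was -0.77 and missed the threshold (SE 0.24, adjusted p = 0.0525).

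**Figure D3:**
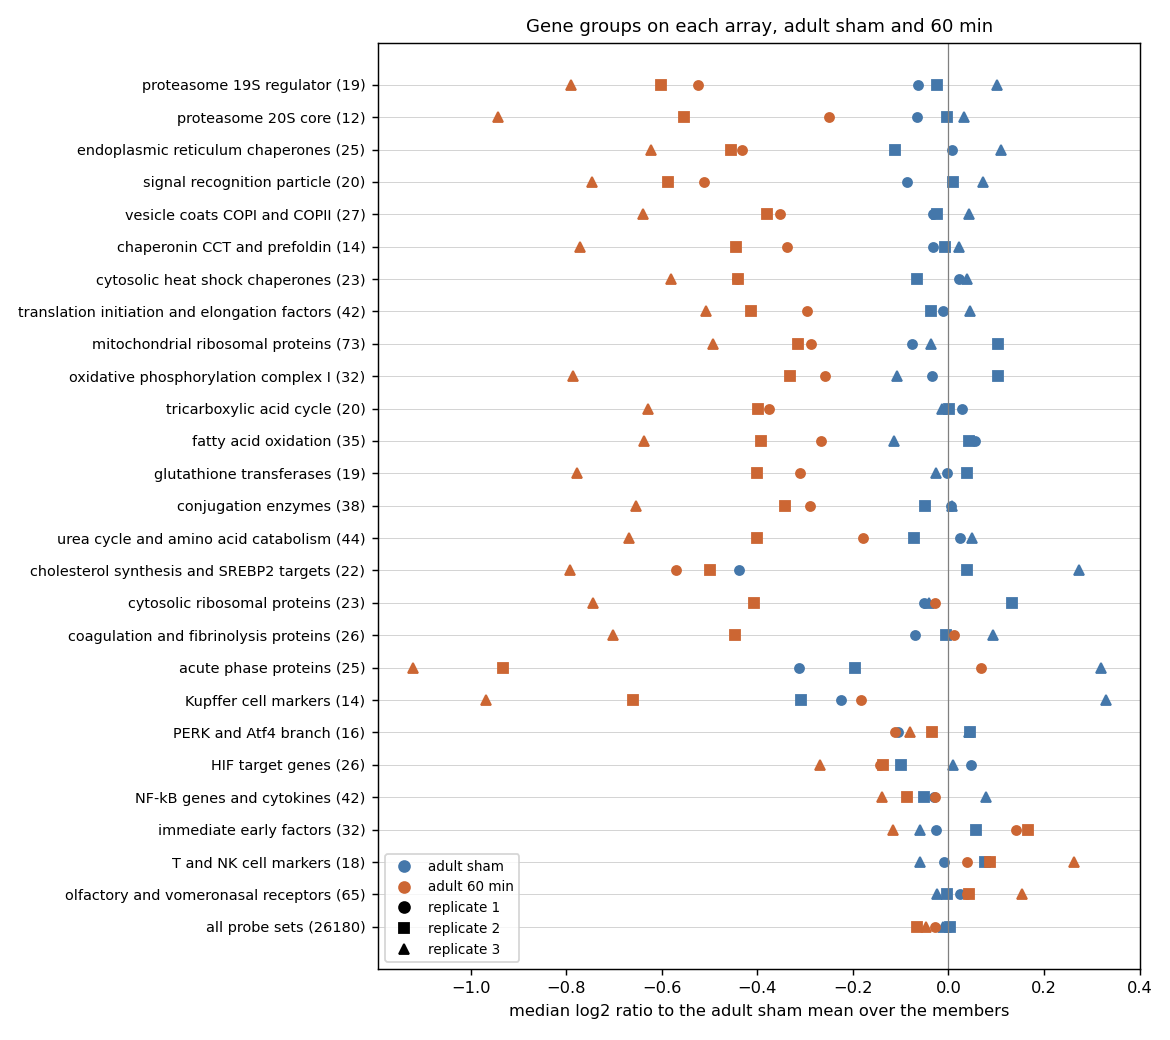
Median log2 ratio to the adult sham mean (horizontal axis) over the members of each gene group, with 1 point per adult sham or adult 60 min array and member numbers in brackets. The 20S core spreads from -0.25 to -0.94 over the ischemic arrays, whereas the signal recognition particle group lies between -0.51 and -0.75.

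Chaperones were lower as well, in the cytosol and in the endoplasmic reticulum. Of 23 cytosolic heat shock genes 6 were called lower and none higher, with a list median of -0.46. Hsp90aa1, the inducible cytosolic Hsp90, had ratios of 0.991, 0.796 and 1.21 in sham liver and 0.332, 0.437 and 0.528 after 60 min. It fell by 1.21 (SE 0.32, adjusted p = 0.0351), and its co-chaperones Dnaja1 and Stip1 fell by 0.87 and 0.70. Hspa1a, the stress-inducible Hsp70 and singled out after its values were seen, had 60 min ratios of 1.26, 1.38 and 0.729, on both sides of sham, and a log2 value of 0.12 (SE 0.25). Of the 14 subunits of the chaperonin CCT, which folds actin and tubulin, and of its partner prefoldin, 4 were called lower (Cct2, Cct3, Cct4 and Cct5), with falls of 0.65 and 0.64 for Cct2 and Cct4. In mitochondria 7 of 15 chaperones and proteases were called lower. They included the matrix Hsp70 Hspa9, which fell by 0.68, its exchange factor Grpel1, which fell by 0.58, and the unfoldase Clpx, which fell by 0.83 (SE 0.25, adjusted p = 0.0464). In the list for protein import into mitochondria 5 of 20 were called lower, with the inner membrane channel subunit Timm17a at a fall of 0.62 and the outer membrane receptor Tomm70a at 0.60. The other 3 were Samm50, Timm13 and Gfer.

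Endoplasmic reticulum chaperones fold proteins bound for secretion, and many are induced through a promoter element, the endoplasmic reticulum stress element (ERSE), that is read by Atf6 with NF-Y. In the 250 bases before the gene start, the ERSE letters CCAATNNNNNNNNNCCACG, searched on both strands, occurred in 9 of the 22 chaperone and Xbp1-branch genes with a promoter in the RefSeq table (build GRCm38.p6), 39.1% of their 23 promoters, and in 0.113% of all 32851 promoters. The 9 genes were Calr, Canx, Creld2, Derl3, Ero1b, Hsp90b1, Hspa5, Pdia6 and Syvn1. A match is a description of letters, not of a bound factor. The promoters of 3 of the low genes are shown because they carry this element, with the matches in capitals. Hspa5 is on the plus strand at chr2:34771840-34772089, Hsp90b1 on the minus strand at chr10:86705445-86705694 and Creld2 on the plus strand at chr15:88819396-88819645, each 5′ to 3′ toward its gene. Hsp90b1 holds 2 matches, and the others 1.
Hspa5: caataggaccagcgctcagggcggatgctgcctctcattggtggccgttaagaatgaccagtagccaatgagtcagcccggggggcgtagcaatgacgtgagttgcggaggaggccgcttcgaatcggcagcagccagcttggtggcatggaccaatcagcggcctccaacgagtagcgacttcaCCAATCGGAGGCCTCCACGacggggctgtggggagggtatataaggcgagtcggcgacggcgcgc
Hsp90b1: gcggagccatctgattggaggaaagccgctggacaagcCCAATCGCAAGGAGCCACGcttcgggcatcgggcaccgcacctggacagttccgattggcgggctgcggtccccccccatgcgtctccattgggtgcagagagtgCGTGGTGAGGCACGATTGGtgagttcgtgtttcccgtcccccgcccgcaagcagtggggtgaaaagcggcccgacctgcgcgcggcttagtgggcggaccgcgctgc
Creld2: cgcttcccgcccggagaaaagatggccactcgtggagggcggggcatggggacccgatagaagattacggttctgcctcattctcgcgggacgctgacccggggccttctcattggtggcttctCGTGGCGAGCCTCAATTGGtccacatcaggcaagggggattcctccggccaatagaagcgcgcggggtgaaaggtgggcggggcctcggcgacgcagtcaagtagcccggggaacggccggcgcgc

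Hspa5, the main Hsp70 chaperone of the endoplasmic reticulum and the classic ERSE gene, had ratios of 1.07, 0.818 and 1.11 in sham liver and 0.374, 0.581 and 0.431 after 60 min. The groups did not overlap, and Hspa5 fell by 1.13 (SE 0.30, adjusted p = 0.0368). Hsp90b1, its Hsp90 partner, went from 0.969, 0.869 and 1.16 to 0.65, 0.52 and 0.508 and fell by 0.84 (SE 0.24, adjusted p = 0.0407). Edem1 and Derl1, which act in the removal of misfolded proteins, fell by 0.60 and 0.48 and were the other called members. Creld2 had 60 min ratios of 0.267, 0.729 and 0.501 and a log2 value of -1.08 that missed the threshold (SE 0.46, adjusted p = 0.119); for the secreted factor Manf it was -1.07 (SE 0.34, adjusted p = 0.0553). Of the 25 measured genes of the list 4 were called, 23 were below 0, and the median was -0.61. Among the 9 genes with the ERSE letters 2 were called lower and the median was -0.61; among the 13 without a match 1 was called and the median was -0.60. The split by these letters therefore came with nearly the same values. The heat shock letters GAANNTTCNNGAA, searched the same way, lay in 0.466% of all promoters and, among 21 cytosolic heat shock genes matched, only before Dnajb6. Neither motif lay before the 9 matched core and 16 matched regulator genes of the proteasome.

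Genes downstream of the other arm of endoplasmic reticulum stress, the kinase PERK and the factor Atf4, lay nearer to sham. None of 16 was called by limma (3 had an unadjusted p under 0.05), and the median was -0.10; it was 0.02 without sham replicate 3. Atf3, a stress-induced transcription factor, was higher on 2 of the 3 ischemic arrays, at 2.05, 2.40 and 1.09 against 0.79, 1.15 and 1.07 in sham liver, with a log2 value of 0.83 (SE 0.32, adjusted p = 0.0927). Ddit4, which restrains the growth kinase mTORC1, had sham ratios of 1.85, 0.315 and 0.835 and ischemic ratios of 0.466, 0.32 and 0.282. Sham replicate 2 lay as low as the ischemic arrays.

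The route by which proteins enter the secretory pathway was among the lowest groups. All 20 measured genes of the signal recognition particle, which pauses the ribosome and docks it at the membrane, the Sec61 translocon and signal peptidase had non-overlapping groups with the ischemic arrays below sham, as against 22.8% of all probe sets, and 9 were called. With 1 probe set per gene, 3713 of all 14351 genes had such groups. The list median was -0.59. Srp54a, the GTPase subunit of the particle, had ratios of 0.815, 0.713 and 1.47 in sham liver and 0.294, 0.229 and 0.161 after 60 min. It fell by 2.10 (SE 0.43, adjusted p = 0.0282), the third largest fall among called genes with a symbol. Near-identical Srp54 copies exist in the mouse genome, so that value may not belong to Srp54a alone. The signal peptidase subunit Spcs2 fell by 0.89 (SE 0.24, adjusted p = 0.037), the translocon-associated Ssr2 by 0.81 and the channel itself, Sec61a1, by 0.60. In N-glycosylation 3 of 24 were called lower (Ostc, Alg5 and Dpm1). Ostc, a subunit of oligosaccharyltransferase, went from 0.823, 1.02 and 1.16 to 0.46, 0.502 and 0.502 and fell by 1.02 (SE 0.22, adjusted p = 0.0298). Of 27 genes of the COPI and COPII vesicle coats, their cargo receptors and small GTPases, 9 were called lower and all 27 were below 0. The coat subunit Arcn1 and the cargo receptors Lman1 and Tmed9 fell by 0.69, 0.70 and 0.70.

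In protein synthesis, called falls lay in the initiation factors and in mitochondrial ribosomes. Of 42 translation factors 15 were called lower, with a median of -0.43. Eif3m, a subunit of the initiation factor eIF3, had ratios of 0.927, 0.91 and 1.16 in sham liver and 0.662, 0.489 and 0.584 after ischemia and fell by 0.79 (SE 0.17, adjusted p = 0.0295). Eif1a, which helps find the start codon, fell by 0.76. Of 73 mitochondrial ribosomal proteins 21 were called lower, 70 were below 0 and the median was -0.36, with Mrpl18 at a fall of 0.77 and Mrps31 at 0.69. Of 18 cytosolic aminoacyl-tRNA synthetases 5 were called lower: Iars by 0.77, Hars by 0.70, Aars by 0.62, Farsb by 0.60 and Gars by 0.56. Cytosolic ribosomal proteins gave another picture. Only 23 of 78 could be measured by symbol, none was called by limma (9 had an unadjusted p under 0.05), and their median was -0.03 on 60 min replicate 1, -0.41 on replicate 2 and -0.74 on replicate 3.

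Among 45 splicing factors and hnRNPs 9 were called lower and none higher, with a median of -0.40. Srsf3, a splicing regulator, had ratios of 0.973, 1.00 and 1.03 in sham liver and 0.46, 0.608 and 0.455 after 60 min. It fell by 0.99 (SE 0.25, adjusted p = 0.0329), and the RNA helicase Ddx5 fell by 0.89. Ran, the GTPase that drives nuclear transport, fell by 0.89 (SE 0.23, adjusted p = 0.0335), and the import adaptor Kpna1 by 0.49. These were the only 2 called among 29 nuclear pore and transport genes, a share of 6.90%. Of all 14351 genes with 1 probe set each, 9.54% were called and 1131 were called lower.

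Genes of mitochondrial energy metabolism were called lower in the tricarboxylic acid cycle, in the respiratory complexes and in ATP synthase. The shares were 60.0% for the cycle, 19.4% for all complexes with ATP synthase, and 15.4% for ATP synthase alone. Over the genes of all lists together it was 17.9%, so only the cycle stood clear of that level. Of 20 genes of the tricarboxylic acid cycle and pyruvate dehydrogenase 12 were called lower, all 20 were below 0 and the median was -0.47. Dld, the shared lipoamide dehydrogenase of these complexes, had ratios of 1.02, 0.891 and 1.09 in sham liver and 0.532, 0.502 and 0.556 after 60 min. The 3 ischemic arrays were close to each other, and Dld fell by 0.91 (SE 0.24, adjusted p = 0.0349). Fumarase, Fh1, and the succinate-CoA ligase subunit Sucla2 both fell by 0.81, and malate dehydrogenase, Mdh2, by 0.68. Across the complexes of oxidative phosphorylation 13 of 67 were called lower, 66 were below 0 and the median was -0.42. Uqcrc2, a core protein of complex III, fell by 0.70 (SE 0.18, adjusted p = 0.0351), and the complex I subunits Ndufb5 and Ndufs4 fell by 0.65 and 0.62. The ATP synthase genes Atp5c1 and Atp5b fell by 0.71 and 0.36. This group leaned on 1 array, with a median of -0.22 on replicate 1, -0.31 on replicate 2 and -0.78 on replicate 3; without replicate 3 the median log2 value was -0.25.

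Fatty acid oxidation, the main fuel route of hepatocytes, had 11 of 35 genes called lower and none higher, with a median of -0.44. The peroxisomal enzymes Acaa1a and Ehhadh fell by 0.73 and 0.63 (SE 0.20 and 0.14), and Hsd17b4 by 0.59. Hadhb, the thiolase subunit of the mitochondrial trifunctional protein, had a value of -0.72 that missed the threshold (adjusted p = 0.0538). Glycolysis stood out less. Of 17 genes Tpi1, triose phosphate isomerase, was the only one called, with a fall of 0.67 (SE 0.18, adjusted p = 0.0379), and the median was -0.19 (-0.12 without sham replicate 3). In gluconeogenesis and glycogen handling all 14 genes were below 0 with a median of -0.48. Only Pygl, liver glycogen phosphorylase, was called (7.14% of the list), with a fall of 0.50. The list median was -0.29 without sham replicate 1 and -0.30 without 60 min replicate 3. Ppp1r3b, which directs a phosphatase to glycogen, went from 0.933, 1.07 and 0.994 to 0.452, 0.49 and 0.639, with a log2 value of -0.94 and an adjusted p of 0.0558.

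Among enzymes of drug metabolism the largest single fall of the comparison with a symbol was Cyp2b10, the classic target of the nuclear receptor CAR. Its sham ratios were uneven, at 1.75, 0.25 and 1.00, and its ischemic ratios were 0.0738, 0.0702 and 0.0662. Even the lowest sham array lay above all 3 ischemic arrays, and Cyp2b10 fell by 3.44 (SE 0.73, adjusted p = 0.0283). Cyp2c55 fell by 1.17, Cyp3a13 by 0.87 and the vitamin D hydroxylase Cyp2r1 by 0.74, and 6 of 35 P450 genes in all were called lower. Cyp3a13 rested on 2 arrays, as 60 min replicate 1 at 0.889 lay within its sham range. Of 38 other conjugation enzymes 14 were called lower. Papss2, which makes the sulfate donor, went from 0.908, 0.941 and 1.15 to 0.716, 0.597 and 0.438 and fell by 0.80 (SE 0.14, adjusted p = 0.0209). The methyltransferase Nnmt and the sulfotransferase Sult1d1 fell by 0.89 and 0.87. Of 19 glutathione transferases, which couple reactive compounds to glutathione, 6 were called lower, with falls of 1.00 for Gstm3 and 0.99 for Gstt3. The largest value in that list, Gsta2 at -1.18, missed the threshold (SE 0.37, adjusted p = 0.0526). Members of such families resemble each other in sequence, so their probe sets may share signal.

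Antioxidant enzymes and targets of the oxidant-sensing factor Nrf2 did not rise as a group. Of 33 measured 10 were called lower and none higher, with a median of -0.37. The mitochondrial superoxide dismutase Sod2 had ratios of 1.02, 1.02 and 0.964 in sham liver and 0.765, 0.761 and 0.593 after 60 min and fell by 0.51 (SE 0.15, adjusted p = 0.0415). The transporter Abcc4 fell by 0.72, and Taldo1 of the pentose phosphate route by 0.59. Metallothioneins, which bind zinc and scavenge oxidants, split the arrays rather than the groups. Mt1 had ratios of 1.26, 0.137 and 1.60 in sham liver and 1.72, 0.093 and 0.0847 after ischemia, so sham replicate 2 went with 60 min replicates 2 and 3. Mt2 showed the same order (1.23, 0.0789 and 1.69 against 1.60, 0.0515 and 0.0526), and neither was called (adjusted p = 0.306 and 0.284). In the list of metallothioneins, zinc and iron genes 4 of 20 were called lower: the zinc importer Slc39a4 by 0.73, the iron regulatory protein Aco1 by 0.54, and Hfe and Fth1.

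Lipid, bile acid and amino acid genes followed. In bile acid synthesis and transport 8 of 28 were called lower. Slc10a2, the sodium-dependent bile acid transporter of ileum and bile ducts, fell by 1.43, but its sham ratios of 0.397, 0.341 and 2.26 depended on replicate 3, and its ischemic ratios were 0.275, 0.272 and 0.209. The hepatocyte uptake carrier Slco1b2 fell by 0.72 (SE 0.17, adjusted p = 0.0307). Cholesterol synthesis genes had a low median of -0.61 over 22 genes, with only Tm7sf2 and Sc5d (9.09%) called lower, by 0.68 and 0.70. The array medians were -0.44, 0.04 and 0.27 in sham liver and -0.57, -0.50 and -0.79 after 60 min, and without sham replicate 3 the list median was -0.40. Of 22 fatty acid synthesis genes all were below 0 and 3 were called: Insig2, Fads2 and Scd1. Insig2 holds the SREBP factors in the endoplasmic reticulum. Its ratios went from 1.03, 0.935 and 1.03 to 0.469, 0.479 and 0.427, a fall of 1.12 (SE 0.23, adjusted p = 0.0282), and its second probe set gave -1.15. The fatty acid desaturases Fads2 and Scd1 fell by 0.72 and 0.65. All 44 urea cycle and amino acid genes were below 0, and 12 were called lower. Oat, which starts ornithine breakdown, went from 0.839, 0.971 and 1.19 to 0.584, 0.612 and 0.424 and fell by 0.89 (SE 0.17, adjusted p = 0.0282). Glutamine synthetase, Glul, fell by 0.72.

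In the plasma protein lists 60 min replicate 1 lay near sham, as it did for the cytosolic ribosomal proteins. The 26 coagulation and fibrinolysis genes had medians of 0.01, -0.45 and -0.70 on the 3 ischemic arrays. Only Serpinc1, antithrombin, was called, with a fall of 0.38 (SE 0.11, adjusted p = 0.044), and no complement gene was called by limma (0 of 22, with 10 at an unadjusted p under 0.05). Fgb, the fibrinogen beta chain, had ischemic ratios of 1.08, 0.616 and 0.534 against 0.898, 1.01 and 1.09 in sham liver. Without 60 min replicate 1, 18 coagulation and 10 complement genes were called. Of 31 apolipoproteins and carriers 3 (9.68%) were called lower, Pon3, Pon1 and Mttp. Pon3 fell by 0.64 (SE 0.14, adjusted p = 0.0299), and 17 genes of that list were called without 60 min replicate 1.

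Acute phase proteins, which the liver secretes when inflammation reaches it, varied widely among sham mice. Saa2 had sham ratios of 0.173, 0.369 and 2.46 and ischemic ratios of 0.457, 0.103 and 0.0784. Lcn2 had 0.176, 0.336 and 2.49 in sham liver and 1.36, 0.109 and 0.0921 after ischemia, and Orm2 had the same pattern. Sham replicate 3 was thus the highest array for these genes and 60 min replicate 1 the highest ischemic one. The list medians were -0.31, -0.20 and 0.32 on the sham arrays and 0.07, -0.93 and -1.12 on the ischemic ones. Only Saa4, the constitutive serum amyloid A, was called, with a fall of 0.93 (SE 0.22, adjusted p = 0.0307), although the log2 values of Saa2 and Saa1 were -1.80 and -1.60 (adjusted p = 0.102 and 0.113). The list median was -0.55 with all arrays, -0.32 without sham replicate 3 and -0.93 without 60 min replicate 1, where 15 of 25 were called.

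**Figure D4:**
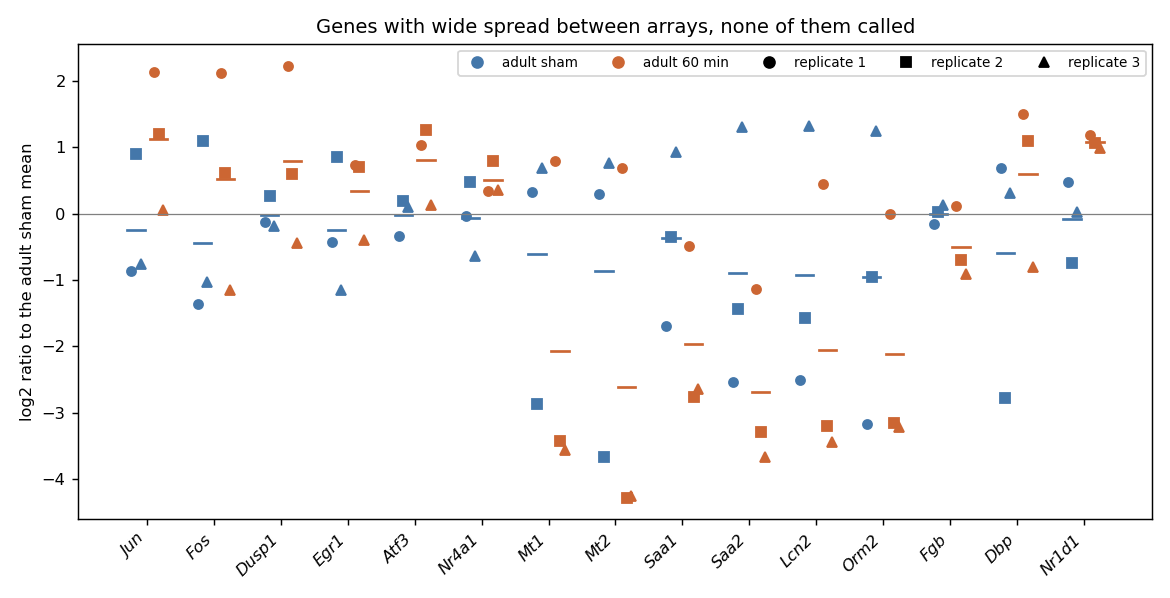
Log2 of the ratio to the adult sham mean (vertical axis) for genes that were not called and whose arrays within a group lie far apart, with 1 point per array, marker shapes for replicates and dashes for group means. As ratios, Mt2 spans 0.0789 to 1.69 among sham arrays alone and Jun 1.04 to 4.38 among the ischemic arrays.

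Immediate early factors gave no called rise. Of 32 genes 22 were above 0, and the median of 0.19 was 0.12 without 60 min replicate 1. The array medians were 0.14, 0.17 and -0.12 after 60 min, the last of them below the sham arrays at -0.03, 0.06 and -0.06. The ischemic arrays all lay above the sham arrays for 4 of the 32, as against 11.7% of all probe sets and 1590 of the 14351 genes with 1 probe set each. None was called higher, beside 238 of those 14351 genes, a share so small that 0 of 32 says little about the group. Fosl2, an AP-1 subunit, was called lower by 0.40 (SE 0.09, adjusted p = 0.0298). Jun, the AP-1 factor induced by stress kinases, had ratios of 0.548, 1.86 and 0.589 in sham liver and 4.38, 2.29 and 1.04 after 60 min. Sham replicate 2 lay above ischemic replicate 3, and the log2 value of 1.37 (SE 0.49) missed the threshold (adjusted p = 0.0717). Fos, its partner, had 0.388, 2.12 and 0.489 against 4.34, 1.53 and 0.452. Dusp1, a phosphatase that switches off stress kinases and was singled out after its values were seen, was high on 1 ischemic array at 4.69, with 1.51 and 0.739 on the others. Ccn1, a secreted matrix protein and target of YAP, was by contrast even: 0.931, 1.11 and 0.956 in sham liver and 1.78, 1.91 and 1.81 after ischemia. It rose by 0.88 (SE 0.14, adjusted p = 0.0209).

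Targets of HIF, p53 and the glucocorticoid receptor gave few calls, at 3.85%, 0% and 5.0% of their lists. Of all genes with 1 probe set each 9.54% were called. Of 26 HIF targets 1 was called, and it was lower: Bnip3l, a mitophagy receptor, by 0.55 (SE 0.14, adjusted p = 0.0315). Vegfa, the angiogenic growth factor that HIF induces and singled out after its values were seen, had ischemic ratios of 0.994, 1.03 and 0.872 and a log2 value of -0.05 (95% interval -0.25 to 0.14). None of 20 Gadd45 and p53 growth arrest genes was called by limma (5 had an unadjusted p under 0.05). Gadd45g ran from 1.43 on ischemic replicate 1 to 0.311 and 0.12 on the others. Of 20 glucocorticoid-responsive genes the kinase Sgk1 was called, going from 1.13, 0.766 and 1.11 to 0.494, 0.381 and 0.379, a fall of 1.25 (SE 0.37, adjusted p = 0.047). The list median was -0.47 with all arrays and -0.71 without sham replicate 2, whose array median of -0.64 lay with -0.67 and -0.75 on 60 min replicates 2 and 3. The array median of 60 min replicate 1 was -0.15, and 7 genes were called without it.

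Among 22 circadian clock genes the median was 0.01, with 11 above and 11 below 0. Clock and Rora, an activator of the loop and a receptor that drives it, fell by 0.64 and 0.74 (SE 0.17 and 0.18). Dbp, an output gene with a strong daily rhythm, had sham ratios of 1.61, 0.146 and 1.24, so sham replicate 2 stood far from its group, and ischemic ratios of 2.84, 2.14 and 0.574. Nr1d1, the repressor Rev-erb alpha, had ischemic ratios of 2.27, 2.09 and 1.98, all above sham at 1.39, 0.594 and 1.02, with a log2 value of 1.16 (adjusted p = 0.132). The time of day of tissue collection is not given in the labels used here, and its part in these values was not tested. Without sham replicate 2 the list median was -0.13, and without 60 min replicate 1 it was -0.07. Of 27 hepatocyte transcription factors and nuclear receptors 3 (11.1%) were called lower: the dioxin receptor Ahr by 0.97 (SE 0.23, adjusted p = 0.0307), Nr5a2 by 0.49 and the oxysterol receptor LXR alpha, Nr1h3, by 0.46. The list median of -0.03 turned to 0.02 after quantile normalization and 0.01 with arrays centred on their median, and was -0.15 without 60 min replicate 1.

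Inflammatory genes gave 2 calls among 42 (4.76%, beside 9.54% of all genes with 1 probe set each), both lower. Cxcl1, a chemokine that draws neutrophils, had ratios of 0.849, 0.406 and 1.75 in sham liver and 0.216, 0.159 and 0.0737 after 60 min. It fell by 2.63 (SE 0.54, adjusted p = 0.0282), the second largest fall with a symbol. The cytokine Il18 fell by 0.63 (SE 0.16, adjusted p = 0.0327). The list median of -0.07 turned to 0.00 after quantile normalization. Among 28 interferon-stimulated genes none was called by limma (9 had an unadjusted p under 0.05). Their median was -0.20 with all arrays and -0.11 without 60 min replicate 3, with array medians of -0.02, -0.18 and -0.38 after 60 min. Of 33 autophagy genes 3 were called lower, the cargo receptor Sqstm1 by 0.55 and the conjugation genes Atg12 and Atg3, and 1 was called higher. That gene was Tfeb, the factor that drives lysosome and autophagy genes, with 0.88, 1.25 and 0.867 in sham liver and 1.47, 1.58 and 1.34 after 60 min, a rise of 0.57 (SE 0.16, adjusted p = 0.0421). Of 30 cell death genes 2 were called lower: Aifm1, by 0.68, and the ubiquitin ligase Birc2, by 0.49. That share of 6.67% lies below the 9.54% called among all genes with 1 probe set each.

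Cytoskeletal and purine genes complete the lists. Tubb2a, a beta tubulin, had ratios of 0.872, 1.31 and 0.822 in sham liver and 0.142, 0.425 and 0.459 after 60 min. It fell by 1.69 (SE 0.51, adjusted p = 0.0479), with replicate 1 the lowest array. Of 27 tubulin, actin and motor genes 7 were called lower, among them the Arp2/3 complex subunits Actr2 and Arpc5, which branch actin filaments, by 0.65 and 0.60. Of 25 purine genes 3 (12.0%) were called lower: Pnp by 0.58, Entpd5 by 0.55 and xanthine dehydrogenase, Xdh. Impdh2, of guanine nucleotide synthesis, lay above sham on each ischemic array (1.36, 2.38 and 3.29 against 0.997, 1.20 and 0.799) with a log2 value of 1.16 that missed the threshold (SE 0.37, adjusted p = 0.0545). None of 30 cell cycle genes was called by limma (3 had an unadjusted p under 0.05), and their median of -0.03 turned to 0.03 after quantile normalization and 0.01 with centred arrays.

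Outside the lists, the largest falls with a symbol included Hectd2, a ubiquitin ligase, by 1.28, Tspyl4 by 1.24, the galectin-like Lgalsl by 1.14, Cyp39a1, an oxysterol hydroxylase, by 1.13 and the minor spliceosome protein Rnpc3 by 1.13, with -1.03 on its second probe set. The largest rises were fewer and smaller. Adam6b, of a family expressed in testis, had ratios of 1.27, 1.24 and 0.484 in sham liver and 2.78, 2.48 and 5.50 after 60 min and rose by 1.88 (SE 0.47, adjusted p = 0.0327). Vwc2, a secreted regulator of BMP signalling, rose by 1.13, Vat1 by 1.12, Ang2, of the angiogenin family, by 1.03 and the noncoding RNA Dio3os by 1.01. The homeobox gene Irx1 rose by 0.90, Tcaf1 by 0.88, Omg, a myelin glycoprotein, by 0.85 and Klk1b5 by 0.84. Sestd1 was even across arrays, at 1.15, 0.804 and 1.05 in sham liver and 1.68, 1.74 and 1.71 after ischemia, and rose by 0.79 (SE 0.14, adjusted p = 0.0282). The rises of Tmem179, Insrr, Pde6c and Bora lay between 0.70 and 0.74. Several of these rising genes are known from testis, brain or retina more than from liver.

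Genes that liver should not express were therefore read beside them. Of 65 olfactory and vomeronasal receptors 45 were above 0, with a median of 0.09 and array medians of 0.04, 0.04 and 0.15 on the ischemic arrays, and 3 were called higher: Olfr15 by 0.64, Olfr544 by 0.47 and Olfr68 by 0.35. Another 25 genes of skeletal muscle, neuron and pancreas had a median of 0.08 and gave no call by limma. Without 60 min replicate 3 these medians were 0.05 for the receptors and 0.01 for the other genes. These small values lie on the same side of 0 as the rises, and their part in the rises was not tested.

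Markers of liver cell types were also measured. All 14 hepatocyte markers were below 0 with a median of -0.33 (-0.10, -0.32 and -0.53 on the ischemic arrays), and Tdo2 was called lower. All 14 Kupffer cell markers, genes of the resident macrophages, were below 0 as well, with a median of -0.46. Cd163, the haemoglobin scavenger receptor, went from 1.07, 0.78 and 1.15 to 0.732, 0.524 and 0.411 and fell by 0.87 (SE 0.25, adjusted p = 0.0413). The Kupffer medians of -0.22, -0.31 and 0.33 on sham arrays overlapped with -0.18, -0.66 and -0.97 on ischemic ones, and the list median ran from -0.26 without sham replicate 3 to -0.74 without 60 min replicate 1. Sinusoidal endothelial and stellate markers had medians of -0.19 and -0.15 with none of 16 and 14 called by limma (5 and 1 at an unadjusted p under 0.05); the stellate median was -0.04 without 60 min replicate 3. Markers of T and NK cells, B cells, neutrophils and red cells had medians of 0.15, 0.13, 0.02 and 0.10, and only Sdc1, which hepatocytes also express, was called among them, lower by 0.55. The neutrophil median turned negative, to between -0.06 and -0.01, without sham replicate 1 or 2 or without 60 min replicate 3. Among cholangiocyte markers E-cadherin, Cdh1, fell by 0.99 (SE 0.28, adjusted p = 0.0413), while the list median was 0.06 and turned to -0.02 without sham replicate 3. Keratin 18, Krt18, fell by 0.77 in the mesothelial list, whose median was 0.05 and turned to -0.02 without sham replicate 2. The part of cell makeup in the other results was not tested.

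The 60 min values can be set beside those at 30 and 90 min in adult liver, which share the sham arrays. At 30 min no probe set was called by limma (2701 had an unadjusted p under 0.05), at 60 min 2067, and at 90 min 1323 (5.05%), 1051 of them lower (4.01%). Tested directly, 60 min against 30 min gave no call by limma (2063 at an unadjusted p under 0.05, lowest adjusted p 0.629), and 90 min against 60 min gave 2 (0.00764%). With adult 30 min replicates 1, 2 and 3 left out in turn, the 2063 became 3984, 2401 and 693. Over all genes of the lists the 30 min array medians were -0.26, -0.20 and 0.03, so replicate 3 lay near sham. The values of single genes ran differently over the times, but none of the genes named next was called between 30 and 60 or 60 and 90 min. Tubb2a was -0.08, -1.69 and -0.67 at 30, 60 and 90 min, Lgalsl was 0.13, -1.14 and -0.54, and Hsp90aa1 was -0.34, -1.21 and -1.34. Cyp2b10 was already at -2.85 at 30 min and Cxcl1 at -2.20. Kupffer markers had medians of -0.51, -0.46 and -1.07, and 12 of the 14 were called at 90 min.

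**Figure D5:**
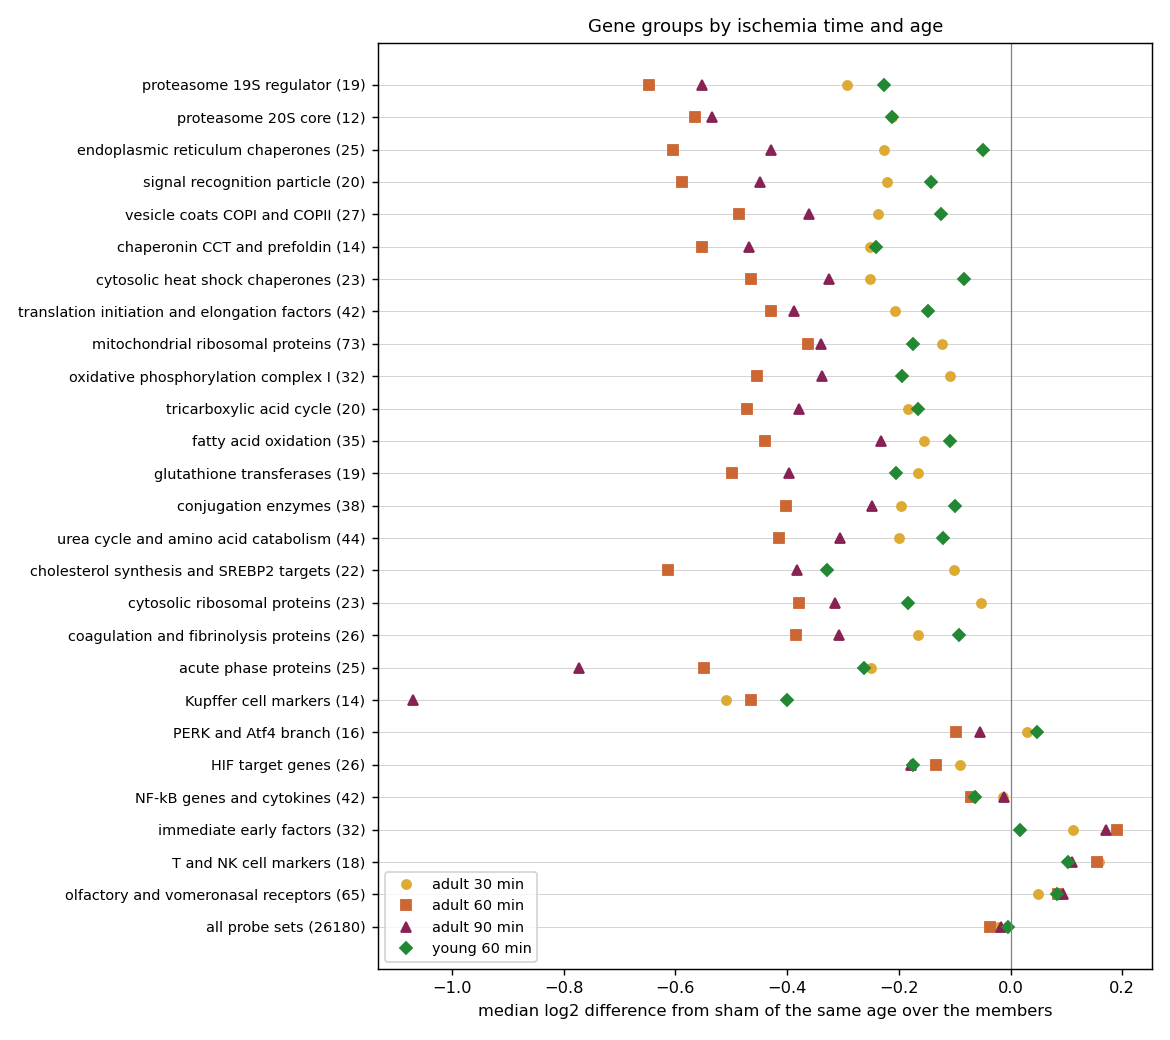
Median log2 difference from sham of the same age for gene groups in adult liver at 30, 60 and 90 min and in young liver at 60 min (1 point per group of genes and condition; adult points share their sham arrays). The proteasome 19S regulator stands at -0.29, -0.65 and -0.55 in adults and at -0.23 in young liver, and the Kupffer markers at -0.51, -0.46, -1.07 and -0.40. The adult 30 min arrays differ, with 19S medians of -0.58, -0.41 and 0.08 on replicates 1, 2 and 3.

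Young liver after the same 60 min, measured against its own sham arrays, had 2 probe sets called (0.00764%). Across the 26180 probe sets the adult and young log2 values had a Pearson r of 0.54 and a Spearman rho of 0.57, and the slope of young on adult was 0.38, a description over probe sets that are not independent. Of the 1626 probe sets called lower in adults 94.3% were below 0 in young liver, as against 50.9% of all, but with a median of -0.20. Of the 441 called higher 83.2% were above 0 in young liver, with a median of 0.10. Both sets were picked by their adult values, so smaller young medians follow in part from the choice. Error in the adult values also lowers the slope of young on adult. The test of the age difference itself called no probe set by limma (1821 at an unadjusted p under 0.05, lowest adjusted p 0.708), so no gene was shown to differ between the ages. The median over lists was lower in adult than in young liver in 52 of 64. For the endoplasmic reticulum chaperones it was -0.61 in adults and -0.05 in young liver, for the signal recognition particle group -0.59 and -0.14, and for the 19S regulator -0.65 and -0.23. The young sham arrays lay far apart, at -0.35, -0.12 and 0.34 for these chaperones, and the young 60 min arrays lay within that span. For the 19S regulator the young sham medians were -0.33, -0.14 and 0.40. With young sham replicates 1, 2 and 3 left out in turn, 1044, 1439 and 3459 probe sets had an unadjusted limma p under 0.05 for the age difference. Hspa5 stood at -1.13 in adults and 0.05 in young liver, a difference of -1.18 with an unadjusted p of 0.0126. Srp54a was -2.10 and -0.48, and Tubb2a was -1.69 and 0.05. Other genes were closer in size: Cyp2b10 was -3.44 and -3.69, and Cxcl1 was -2.63 and -2.40.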

How the data were processed

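Liver RNA of 24 mice was measured on Affymetrix 3′ arrays; the 6 adult sham and adult 60 min arrays are compared here. RMA is named in the submitters' processing notes, with no version. The deposited values are linear ratios, per the file headers 1 column per array, and the arithmetic mean of the 3 sham arrays of an age is 1 for every probe set within 2e-07; the authors thus set each age against its own sham group. Groups came from the sample titles. RefSeq accessions were paired with symbols through a GRCm38.p6 table: 15228 of 26180 probe sets had 1 symbol. Log2 ratios of all 24 arrays entered 1 limma model (version 3.58.1, R 4.3.3; 8 group means, 16 residual and 4.65 prior degrees of freedom) with Benjamini-Hochberg adjustment. Gene lists (64, of which 10 hold cell type markers) used 1 probe set per gene, chosen by accession type and number.

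The members and lists were chosen with earlier results of these data known, so counts of list members describe and do not test the lists. Named genes are the 15 largest rises and falls called without overlap and up to 4 members of each list with the largest value, passing over provisional symbols of the Gm and Rik kind. Of the genes this rule names, 1 is not reported here. Where 5 or fewer members of a list passed, or a gene is said to be singled out, it was named after its values were seen. Brightness filters could not be applied to ratios. The number of arrays limits the precision; the median SE was 0.12. On simulated data, in the adult 60 min comparison over 26180 probe sets, 86% of falls and 96% of rises of 1, and 56% and 54% of those of 0.5, on the log2 scale, were found, with 9 false calls. With no change there were 0 calls. The simulated noise was independent between probe sets, and most probe sets were left unchanged. The real arrays shifted over many lists together, so these figures may not hold for the real comparison. Alternatives were other normalizations, probe set choices, covariates, weights, array subsets and each array left out.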

Additional observations from a re-analysis of the deposited data

Results flagged for a closer look

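The 2 probe sets called between 90 and 60 min in adult liver stand here because their difference between the times was itself tested. Both are predicted transcripts without a symbol here. They were higher at 90 min by 0.79 and 0.80 on the log2 scale (SE 0.11 and 0.12, limma adjusted p = 0.0132 for both). One had ratios of 1.07, 1.19 and 1.14 at 60 min and 2.24, 1.96 and 1.69 at 90 min, so the times do not overlap in any of the 3 arrays. Against sham at 60 min neither was called, at 0.18 for both. Their values had a correlation of 0.9998 over the 24 arrays.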

How the results depend on the processing

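For adult 60 min against sham, 0 probe sets were called after quantile normalization (2498 at an unadjusted p under 0.05), 47 with the adult arrays alone, 494 on linear ratios, 4152 with array weights and 4781 with the second number of the code as a covariate, against 2067; with 1 array left out the count ran from 0 to 2977. The 2067 kept their sign in each of these fits on log2 ratios, which use the arrays they were picked from. On linear ratios their sign was not compared, and the quantile fit kept a median of 62.3% of the log2 value. Quantile normalization gives every array the same spread, so part of that loss may come from the step itself. The adult and young responses gave 0 to 3 calls with 1 array left out and 0 otherwise: 3 without adult sham replicate 2 and 1 without adult sham replicate 3. For 60 against 30 min, 1 was called with the compared groups alone. For 90 against 60 min, the count of 2 became 0 with 1 probe set per gene, with predicted accessions left out, after quantile normalization, with adult arrays alone, with the compared groups alone and with the replicate block, 3 with centred arrays, the covariate, weights or linear ratios, and 0 to 3 with 1 array left out. The causes were not tested. With the first number of the code as a replicate block 2173 were called, 1711 of them among the 2067; same-coded arrays did not deviate together (r = -0.03, 0.18 and 0.01), so the codes were not taken to pair mice.

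Of 4606 values of named genes under the alternatives 3376 kept their direction and side of the threshold, 952 lost the call, 276 gained it and 2 turned sign, both without adult sham replicate 3: with 1 array left out Asns ran from -0.99 to 0.082 and Cxcl13 from -1.21 to 0.39. None of the 123 named genes called kept its call with each array left out in turn. Array brightness is not kept, so dim probe sets could not be set aside.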

Other observations

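Chka and Crlf3 differed in value between adult and young liver and were singled out after their values were seen. Neither was called for the age difference. Chka, choline kinase alpha, which starts phosphatidylcholine synthesis, had adult ratios of 0.976, 1.19 and 0.837 in sham liver and 0.553, 0.578 and 0.728 after 60 min, a log2 value of -0.69, and stood at 0.60 in young liver. The difference of -1.29 (SE 0.28) had an unadjusted p of 0.000155 and an adjusted p of 0.708 in limma. In adults Chka stood at 0.13 at both 30 and 90 min. Crlf3, a cytokine receptor-like factor, was -0.55 in adults with a difference of -0.58 from young liver (unadjusted p = 0.000109).

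Of 68 genes with several probe sets of which at least 1 was called, 64 had all probe sets on one side of 0 and 44 had all of them called.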
